A study of Sorghum bicolor with 12 samples.

Results

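Among 47205 transcripts measured in 4 successive stem internodes of sorghum, 331 transcripts from 318 loci averaged 3 or more RPKM (reads scaled by transcript length and by library size) in each of the younger internodes Int1, Int2 and Int3 and averaged in Int4 at most 0.4 times the smallest of those means. They are called members below, and they made up 2.23% of the 14819 transcripts that reached an RPKM of 3 in Int1, Int2 and Int3. The drop into Int4 was what chose them, so every Int4 value of a member is a description and was not tested. The working name of the set was that expression was kept through Int3 and lost in Int4, and the data met only a portion of that name: the Int3 mean was under 0.5 times the mean of Int1 and Int2 in 160 members and at least 0.8 times that mean in 80. The set is therefore described by its rule, as transcripts that reached their lowest level in Int4.

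Grass internodes form below the shoot apex, grow first by cell division and then by cell elongation, and finally stop growing while vascular and fibre cells thicken and lignify their walls. Wall extension depends on proteins such as expansins and xyloglucan endotransglucosylase/hydrolases (XTH), which loosen or re-join the polysaccharide network, on pectin-modifying enzymes, and on arabinogalactan proteins at the cell surface. Callose, a glucan laid down at plasmodesmata, sieve plates and new cell plates, and starch, a transient carbon store, are also handled differently in growing and in mature stem cells.

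The libraries came from whole internodes of R.07020, a photoperiod-sensitive energy sorghum line, kept vegetative under a 14-h photoperiod and harvested 60 days after planting with leaves and leaf sheaths removed. Int1 was the first visible internode below the apex and Int4 the oldest of the 4, each with 3 polyA RNA-seq libraries, and the methods describe 3 plants as biological replicates. No treatment other than the developmental position separated the groups, and all 12 libraries shared the genotype and the growth chamber, so nothing here covers another line, field growth or flowering stems. Whole internodes mix pith, vascular and epidermal cells, and in such bulk samples fewer cells of a type and less RNA per cell cannot be told apart. Depth, read from the spacing of low RPKM values, ran from 0.836 to 1.05 times that of Int1 replicate 1, and RPKM summed to between 467612 and 508319 per library. The summed RPKM of 42 lignin biosynthesis transcripts, used as the marker of secondary walls, ran from 693 to 752 in Int1, from 930.01 to 1484 in Int2, from 2981 to 4800 in Int3 and from 3519 to 5710 in Int4. None of these 42 was a member.

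Int4 replicates 2 and 3 stood apart from each other for the members. The median member stood at 0.665 times its Int4 mean in replicate 2 and at 1.3 times in replicate 3, against 0.995 and 1.04 over all 26320 tested transcripts (those averaging RPKM 1 or more in some internode). The rule chose 267 transcripts without Int4 replicate 2, 489 without Int4 replicate 3 and 360 without Int4 replicate 1. For the leading members each Int4 replicate is therefore given, and for the others the mean, with its SD where replicates are compared.

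From Int1 to Int4, the median over members of the mean RPKM was 19.8, 19.0, 8.51 and 2.28. Within the set, the Int4 mean ranged from 0.0582 to 0.40 times the smallest of the 3 other means, with a median of 0.298, and the median over all tested transcripts was 1.06. Dividing by the smallest of 3 means raises such a ratio. Over 17722 transcripts at RPKM 1 or more in every library, the median ratio to the transcript's mean was 0.842, 0.882 and 0.921 in Int4. It ran from 0.957 to 1.07 in the younger internodes, so typical transcripts also stood lower in Int4. After scaling by these ratios the rule chose 255 transcripts, of which 251 were members. The Int4 mean was at most 1 in 46 members and at least 3 in 129, so most members were still measured in the oldest internode. The 3 Int4 values lay below all 9 other values in 312 members, where 15% of all tested transcripts did so. In the other 19 members at least 1 Int4 library overlapped the younger internodes, and 13 of these 19 had an Int3 mean under 0.5 times that of Int1 and Int2.

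The members differed widely in how their Int3 level compared with that of Int1 and Int2. The ratio of the Int3 mean to the mean of Int1 and Int2 ran from 0.0480 to 1.89 with a median of 0.524, against 0.962 over all tested transcripts and 0.945 over those at RPKM 3 or more in Int1 to Int3. In addition to the 160 members under 0.5, 91 lay from 0.5 to under 0.8, 52 from 0.8 to 1.25 and 28 above 1.25. The highest of the means was in Int1 for 179 members, in Int2 for 115 and in Int3 for 37. The 160 members under 0.5 had median RPKM levels of 35.8, 25.7, 7.55 and 2.18 from Int1 to Int4, which is a stepwise descent. The 80 members at 0.8 or more had median RPKM levels of 8.06, 10.2, 10.6 and 2.19, although 28 of them were above 1.25 and so rose into Int3. These groups were cut on the Int3 ratio and the rule set the drop into Int4, so both shapes follow from the choice. Plateau is used below for overlapping levels, not for a level shown to hold.

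**Figure D1:**
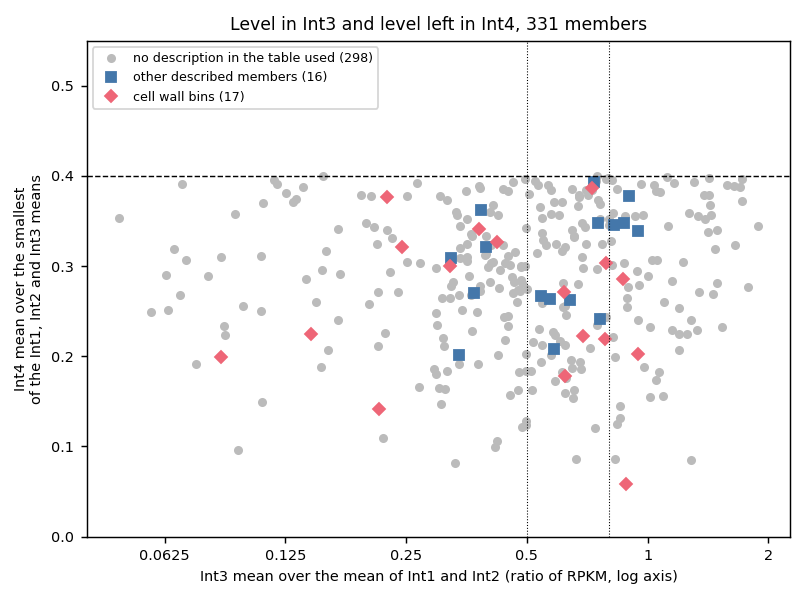
Each point is 1 of the 331 members; the x axis (log scale) is the Int3 mean over the mean of Int1 and Int2, and the y axis is the Int4 mean over the smallest of the 3 other means, both ratios of RPKM. The dashed line is the limit of 0.4 that chose the members and the dotted lines mark 0.5 and 0.8: members spread along x from 0.0480 to 1.89, and the 17 cell wall members (diamonds) lie among the rest.

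How the members behaved in the growing internodes was compared with limma on log2(RPKM + 0.5). A transcript was called at a Benjamini-Hochberg adjusted p under 0.001 over all tested transcripts, a log2 change of at least 1 in size and an average of RPKM 2 or more in either internode. The rule held the Int1, Int2 and Int3 means above a floor and used the smallest of them, so these counts are not independent of it. The counts of called members stand beside the share of all tested transcripts. From Int1 to Int2, 1 member (0.302%) was called higher, where 0.433% of all tested transcripts were, and none was called lower, where 0.0418% were (48 members were lower at an unadjusted p under 0.05). From Int2 to Int3, 96 members (29%) were called lower, where 4.32% of all tested transcripts were. Among transcripts at RPKM 3 or more in Int1 to Int3 the share was 4.77%. No member was called higher from Int2 to Int3 in limma, where 4.81% of all tested transcripts were, and 1 member was higher at an unadjusted p under 0.05. The median log2 change from Int2 to Int3 was -0.81 over members and -0.01 over all tested transcripts, and 289 members had a negative value.

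From Int1 to Int3, 126 members (38.1%) were called lower, where 9.27% of all tested transcripts and 9.9% of those at RPKM 3 or more in Int1 to Int3 were. None was called higher in limma, where 9.01% of all tested transcripts were, and 18 members were higher at an unadjusted p under 0.05. Other settings did call members higher from Int1 to Int3: 7 at an adjusted p under 0.05, 4 when those internodes were fitted alone, and 3 without Int4 replicate 1 as well as 3 without Int4 replicate 2. Of the 96 members that fell from Int2 to Int3, 85 were also called lower from Int1 to Int3. Another 41 members were called lower from Int1 to Int3 but not from Int2 to Int3. The remaining 194 members were called in none of the 3 comparisons among Int1, Int2 and Int3. Their values are a description only, since a missed threshold does not show that a level held. The 1 member called between Int1 and Int2, named here after its values were seen, was Sobic.002G095400.1, with RPKM of 16.4, 17.0 and 14.5 in Int1 and 45.6, 46.5 and 36.4 in Int2. It then stood at 19.1, 12.4 and 15.3 in Int3 and at 4.08, 4.49 and 6.18 in Int4, so Int2 was above all 9 other values. Its rise of 1.39 ± 0.18 (log2, SE) had an adjusted p of 0.000949 in limma. It was not called with a replicate block, where 0 members were. That block went by library number, which the labels do not tie to a plant. The call was also lost without the filter on low values, when Int1 and Int2 were fitted alone, and without any 1 library of Int1 or Int2. It was lost as well without Int3 replicate 3 and without Int4 replicate 1 or 2. At an unadjusted p under 0.05, 85 members differed between Int1 and Int2. No share of all tested transcripts stands beside the counts at an unadjusted p or under other settings. Those counts therefore show nothing particular to the members.

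The most abundant members in Int3 were mostly transcripts without a description in the sources used here, and in several of them the Int2 and Int3 values overlapped. Sobic.008G035400.1 was the most abundant, with RPKM of 683, 900.4 and 969 in Int1 and 1273, 1573 and 1338 in Int2. It reached 549, 584 and 377 in Int3 and 111, 130.4 and 228 in Int4, so the 4 internodes did not overlap and Int2 was the highest. Its fall from Int2 to Int3 was called at a log2 change of -1.49 ± 0.25 (adjusted p = 0.000642 in limma). That call was lost with the replicate block and in 9 of the 12 fits that left out 1 library: each library of Int2 and of Int3, Int1 replicates 2 and 3, and Int4 replicate 2.

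Sobic.001G514200.1 had RPKM of 309, 374 and 223 in Int1, 439.5, 421 and 395 in Int2, 425, 331 and 378 in Int3 and 52.8, 22.4 and 82.2 in Int4. The Int3 values overlapped both younger internodes while each Int4 value was lower than every other, a plateau with a late drop. The change from Int2 to Int3 was -0.15 ± 0.36 (log2, adjusted p = 0.763, not called). Sobic.001G264300.1 followed the same order, with RPKM of 211, 288 and 206 in Int1, 341, 309 and 274 in Int2, 285, 241 and 274 in Int3 and 52.8, 20.8 and 58.9 in Int4. For both transcripts Int4 replicate 2 was the lowest library of all 12.

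Sobic.001G310300.1 also showed a plateau, whereas Sobic.009G123000.1 had every Int3 value above every Int1 value before its drop. Sobic.001G310300.1 had RPKM of 70.8, 99.2 and 60.2 in Int1, 95.1, 93.4 and 87.7 in Int2, 86.1, 73.0 and 98.3 in Int3 and 14.7, 6.34 and 14.5 in Int4. Sobic.009G123000.1 had RPKM of 50.5, 65.8 and 45.9 in Int1, 81.9, 69.6 and 63.4 in Int2, 84.5, 70.7 and 95.2 in Int3 and 12.7, 6.02 and 18.5 in Int4. Neither was called between Int2 and Int3 in limma, where the log2 changes were -0.11 ± 0.27 (adjusted p = 0.777) and 0.22 ± 0.30 (adjusted p = 0.60). The Int4 replicate 2 value was again the lowest of the 3 in both.

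Other abundant members descended in steps. From Int1 to Int4, Sobic.001G514400.1 averaged RPKM of 362 ± 42.5, 255 ± 10.7, 139 ± 24.8 and 32.4 ± 14.8 (SD, n = 3 for this and all later means). Sobic.001G493900.1 stood at 273 ± 10.9, 225 ± 13.4, 153 ± 31.8 and 48.5 ± 13.4 in the same order. Neither was called from Int2 to Int3. Sobic.006G238000.1 peaked in Int2, with libraries at 875, 629 and 349, which was the widest spread among these abundant members, and it fell to 97.5, 99.4 and 124 in Int3 (log2 change -2.44 ± 0.29, adjusted p = 5.68e-05 in limma). Its Int4 values were 39.3, 40.5 and 26.5.

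**Figure D2:**
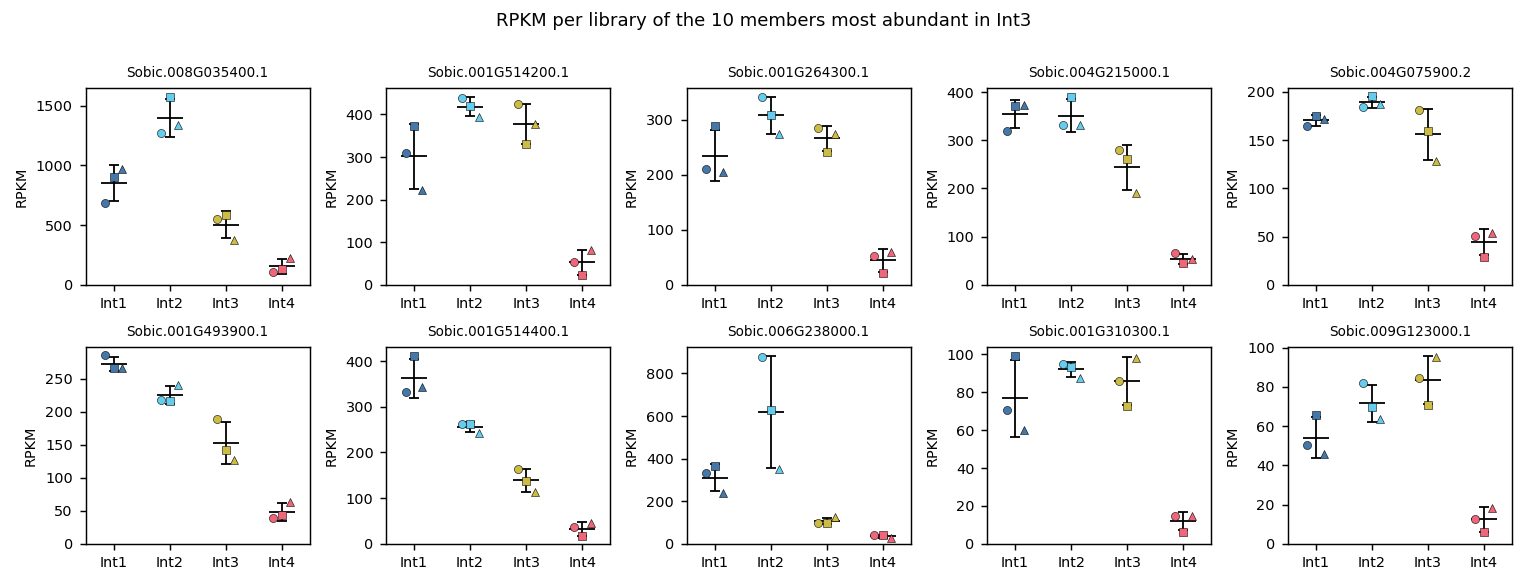
RPKM (y axis, linear, from 0) in each internode (x axis) for the 10 members with the highest Int3 mean; points are single libraries (circle, square and triangle for replicates 1, 2 and 3), and the horizontal bar and whiskers are the mean and SD of 3. Plateau members such as Sobic.001G514200.1 (378 in Int3, 52.4 in Int4) sit beside stepwise members such as Sobic.001G514400.1 (139 in Int3, 32.4 in Int4).

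A description was found for 33 members in the functional table that accompanies the study, which pairs 770 of its differentially expressed transcripts with their best Arabidopsis match. That table was chosen on these same libraries and is held here in shortened form, so its counts are not independent evidence of a direction. None of its larger bins in that form was for hormones, transcription factors or cell division, so it cannot show what the members are as a whole. Of the 33, 17 stood in cell wall bins and 6 in lipid bins, and all 33 had their 3 Int4 values below the 9 others. Cell wall bins held 199 of the 770 transcripts, and 8.54% of those 199 were members, beside 4.29% of the 770. The Int3 mean was at least 0.8 times that of Int1 and Int2 in 7 of the 33 and under 0.5 times in 13. In limma 10 of the 33 (30.3%) were called lower from Int2 to Int3, beside 29% of all members, and 6 of these 10 were cell wall members. The 199 cell wall transcripts of the table as a whole moved mainly the other way, with 49 called higher and 19 lower from Int2 to Int3 and a median log2 change of 0.55.

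XTH enzymes cut xyloglucan chains and join them to new ends, and 4 of the 14 XTH transcripts in the table were members. Over all 14, limma called 4 lower and 1 higher from Int2 to Int3, and the highest mean was in Int1 for 5 and in Int4 for 5, so the family was divided between early and late peaks. Sobic.005G140001.1, whose best match is XTH5 (also known as EXGT-A4), had the deepest drop into Int4 of all 331 members, at 0.0582 times its smallest mean. Its RPKM was 31.7, 35.8 and 41.7 in Int1, 23.8, 33.5 and 33.2 in Int2, 28.6, 31.5 and 28.2 in Int3 and 2.68, 0.17 and 2.28 in Int4. Int1, Int2 and Int3 overlapped and Int4 lay far below, and the change from Int2 to Int3 was -0.02 ± 0.44 (log2, adjusted p = 0.976 in limma).

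The other XTH members had most of their fall behind them by Int3. Sobic.006G228100.1 had RPKM of 266, 242 and 292 in Int1, 119.6, 119 and 146 in Int2, 17.3, 20.2 and 13.7 in Int3 and 1.51, 1.84 and 6.81 in Int4. No 2 internodes overlapped, and the step from Int2 to Int3 was -2.88 ± 0.37 (log2, adjusted p = 9.24e-05 in limma). Sobic.004G126700.1, matched to XTH12, fell from 42.8 ± 6.98 in Int2 to 6.08 ± 0.419 in Int3 (log2 change -2.71 ± 0.25, adjusted p = 1.06e-05 in limma) and stood at 1.36 ± 0.693 in Int4. Sobic.001G441700.1, matched to XTH28, fell from 26.6 ± 1.0 to 7.34 ± 1.24 (log2 change -1.80 ± 0.14, adjusted p = 4.27e-06 in limma) and stood at 2.36 ± 0.433 in Int4.

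Expansins loosen walls without cutting them. Only 1 of 22 expansin transcripts in the table was a member, and the family as a whole had its highest mean in Int4 for 14 of 22, with 7 called higher and 1 lower from Int2 to Int3 in limma. The member was the beta-expansin Sobic.004G227900.1, with RPKM of 66.1, 79.4 and 92.1 in Int1, 89.2, 103.9 and 86.3 in Int2, 63.1, 51.4 and 46.4 in Int3 and 12.1, 7.32 and 9.23 in Int4. All Int3 values were below all Int1 and Int2 values, but the change from Int2 was -0.80 ± 0.18 (log2, adjusted p = 0.00381 in limma) and was not called.

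**Figure D3:**
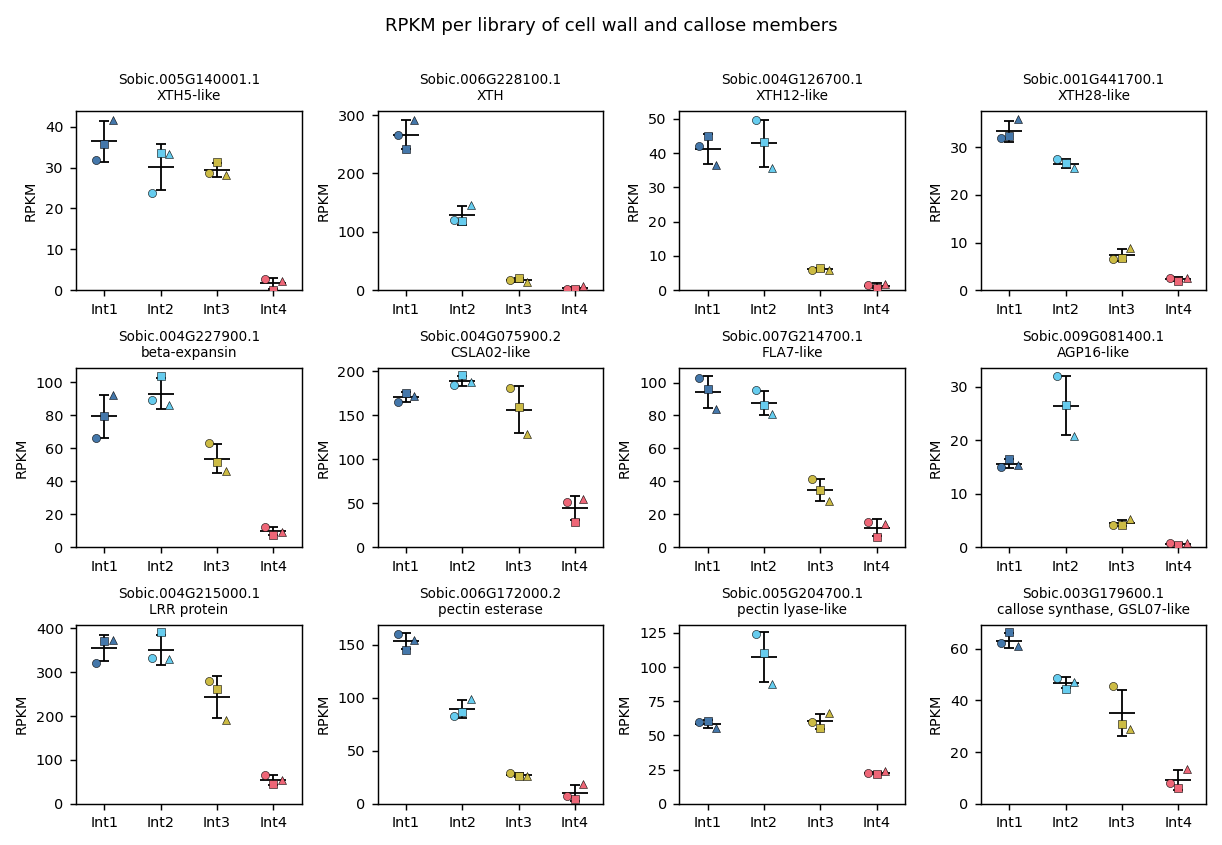
RPKM (y axis, linear, from 0) in each internode (x axis) for 11 cell wall members and 1 callose synthase member; points are single libraries (circle, square and triangle for replicates 1, 2 and 3), and the bar and whiskers are the mean and SD of 3. Sobic.005G140001.1 (XTH5-like) stood at 29.4 in Int3 and 1.71 in Int4, whereas Sobic.006G228100.1 (XTH) was already down to 17.0 in Int3.

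Cell surface proteins formed another group. Among 14 fasciclin-like or other arabinogalactan protein (AGP) transcripts, 2 were members. The AGP16-like Sobic.009G081400.1 had RPKM of 14.9, 16.6 and 15.3 in Int1, 32.0, 26.6 and 20.9 in Int2, 4.21, 4.1 and 5.17 in Int3 and 0.73, 0.41 and 0.77 in Int4. Int2 was the highest internode, none of the 4 overlapped, and the fall from Int2 to Int3 was -2.42 ± 0.18 (log2, adjusted p = 3.68e-06 in limma). The FLA7-like Sobic.007G214700.1 had RPKM of 102.9, 96.4 and 83.8 in Int1, 95.2, 86.6 and 80.8 in Int2, 41.3, 34.4 and 28.2 in Int3 and 15.3, 6.09 and 14.1 in Int4. Int1 and Int2 overlapped and Int3 lay between them and Int4, and the change of -1.34 ± 0.27 (log2) missed the threshold (adjusted p = 0.00188 in limma), though it was called without Int4 replicate 2.

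Leucine-rich repeat (LRR) proteins of the wall gave 2 members among 10 transcripts, of which limma called 3 lower and 2 higher from Int2 to Int3. Sobic.004G215000.1 was the most abundant described member, with RPKM of 320.4, 371 and 373 in Int1, 331, 391 and 331 in Int2, 280.3, 261 and 190.1 in Int3 and 65.1, 44.2 and 53.2 in Int4. Its Int3 values were below every Int1 and Int2 value, although the change from Int2 was not called (-0.54 ± 0.16 on the log2 scale, adjusted p = 0.0195 in limma). Sobic.009G070500.1 fell from 32.7 ± 3.16 in Int2 to 11.7 ± 1.51 in Int3 (log2 change -1.44 ± 0.12, adjusted p = 6.34e-06 in limma) and stood at 3.52 ± 0.467 in Int4. The same bin held Sobic.003G405800.1, a KING1-like regulatory subunit of SNF1-related protein kinase, which acts in energy signalling and is not a wall protein by that description. It fell from 11.1 ± 1.03 to 4.98 ± 0.417 (log2 change -1.08 ± 0.15, adjusted p = 0.000190 in limma) and stood at 1.63 ± 0.458 in Int4, and the call was lost without Int2 replicate 1 or 3 and without Int3 replicate 2.

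Among enzymes that build wall polysaccharides, 1 of 42 transcripts in the cellulose and hemicellulose synthesis bins was a member. The cellulose bin held 34 of them, with the member, and the hemicellulose bin 8. The member was Sobic.004G075900.2, whose best match is CSLA02, a mannan synthase and not a cellulose synthase, with RPKM of 165, 175 and 172 in Int1, 184, 196 and 188 in Int2, 181, 159 and 128 in Int3 and 50.8, 28.9 and 54.1 in Int4. Int3 overlapped Int1, and the change from Int2 was -0.29 ± 0.20 (log2, adjusted p = 0.267, not called in limma). Over the 42 transcripts, 17 had their highest mean in Int3 and 17 in Int4, and limma called 10 higher and 2 lower from Int2 to Int3. Of these calls, 6 higher and 2 lower fell in the cellulose bin and 4 higher in the hemicellulose bin. Sobic.001G418000.1, a UDP-rhamnose synthase that feeds pectin synthesis, was a low member at 3.92 ± 0.751, 4.70 ± 0.701, 3.37 ± 0.729 and 0.740 ± 0.494, and its locus is taken up again with the transcript variants.

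Pectin-acting members fell into 2 kinds. Pectin esterases remove methyl groups from pectin, and 2 of 19 were members. Sobic.006G172000.2 had RPKM of 161, 145 and 155 in Int1, 83.0, 86.5 and 99.2 in Int2, 29.1, 26.5 and 26.1 in Int3 and 7.45, 4.22 and 19.1 in Int4. It was lower at every step, and although the change from Int2 to Int3 was large (-1.70 ± 0.36 on the log2 scale), it was not called (adjusted p = 0.00279 in limma). The fit shares its spread with Int4, whose 3 values were wide, and the call was made without Int4 replicate 2 and without Int4 replicate 3. Sobic.003G116100.1 stayed near its starting level, at 4.91 ± 0.229, 5.37 ± 1.09 and 4.88 ± 0.142 in Int1 to Int3 before 0.987 ± 0.495 in Int4.

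Among 17 pectate lyase or polygalacturonase transcripts, 3 were members and each had its highest mean in Int2. Sobic.005G204700.1, a pectin lyase-like protein, had RPKM of 60.0, 60.7 and 55.2 in Int1, 124, 110.2 and 87.9 in Int2, 59.6, 55.4 and 66.1 in Int3 and 22.4, 22.0 and 23.7 in Int4. Int1 and Int3 overlapped and Int2 stood above both, with a change from Int2 to Int3 of -0.82 ± 0.12 (log2, adjusted p = 0.000189 in limma) that passed on p but not on size. Sobic.009G250800.1, also pectin lyase-like, stood at 20.5 ± 1.42, 30.2 ± 2.50, 19.98 ± 2.09 and 6.05 ± 1.29. Sobic.002G343600.1, a polygalacturonase inhibitor, which restrains pectin-cutting enzymes, stood at 50.1 ± 6.09, 84.4 ± 10.5, 41.7 ± 5.30 and 11.3 ± 7.83.

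Callose synthases gave 2 members among 7 callose transcripts, both matched to GSL07, which makes callose in sieve plates in Arabidopsis. Sobic.003G179600.1 had RPKM of 62.0, 66.2 and 61.0 in Int1, 48.5, 44.4 and 47.2 in Int2, 45.5, 30.9 and 28.8 in Int3 and 8.20, 5.93 and 13.4 in Int4. Sobic.003G180100.1 had RPKM of 47.9, 47.2 and 42.9 in Int1, 32.9, 33.2 and 37.0 in Int2, 46.0, 30.0 and 32.4 in Int3 and 10.3, 10.7 and 18.0 in Int4. In both, Int3 overlapped Int2 and its replicate 1 was the highest of the 3, and neither change was called (log2 changes of -0.44 ± 0.23 and 0.05 ± 0.20, adjusted p = 0.160 and 0.870 in limma). The 5 other callose transcripts summed to between 238 and 252 in Int1, between 126.5 and 157 in Int3 and between 69.3 and 90.0 in Int4. The 2 members are near neighbours by identifier and may share reads, so their separate levels are uncertain.

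Starch synthase I, which extends starch chains in plastids, was represented by Sobic.010G047700.1, the 1 member among 8 starch synthesis transcripts and the 1 of them called lower from Int2 to Int3. Its RPKM was 46.3, 42.1 and 37.2 in Int1, 54.2, 48.1 and 40.5 in Int2, 18.3, 16.8 and 18.1 in Int3 and 4.69, 5.56 and 6.78 in Int4. Int1 and Int2 overlapped and each later internode was lower, with a fall of -1.39 ± 0.14 from Int2 to Int3 (log2, adjusted p = 1.82e-05 in limma).

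Lipid and secondary metabolism gave a mixed group. Lipid transfer proteins carry lipids to the cell surface, and 2 of 11 were members, whereas 8 of the 11 had their highest mean in Int4. Sobic.003G338700.1 had RPKM of 107.6, 86.1 and 122 in Int1, 113, 90.4 and 110.2 in Int2, 59.8, 63.8 and 56.4 in Int3 and 13.1, 19.2 and 15.03 in Int4. Int3 lay below both younger internodes, with a change from Int2 of -0.79 ± 0.15 (log2, adjusted p = 0.00159, not called in limma). Sobic.001G493100.1, the other lipid transfer member, stood at 14.98 ± 0.451, 15.4 ± 2.64, 8.87 ± 0.172 and 1.85 ± 0.805.

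The plastid fatty acid desaturase Sobic.005G002800.1, matched to FAD8, fell from 26.4 ± 1.49 in Int2 to 7.68 ± 1.0 in Int3 (log2 change -1.72 ± 0.26, adjusted p = 0.000272 in limma) and stood at 2.38 ± 1.45 in Int4. That call was lost without any 1 of the Int2 libraries and without Int3 replicate 2 or 3. Sobic.005G033100.1, a peroxisomal long-chain acyl-CoA synthetase that activates fatty acids for breakdown, stood at 6.07 ± 0.837, 6.28 ± 0.605, 4.69 ± 0.648 and 1.13 ± 0.517. The O-methyltransferase Sobic.005G101900.1, placed among the phenylpropanoid enzymes, had RPKM of 33.6, 45.5 and 28.5 in Int1, 145, 147 and 106 in Int2, 88.6, 79.4 and 70.7 in Int3 and 19.7, 6.25 and 10.6 in Int4. Int2 and Int3 were both above Int1, and Int4 was below all. The flavonoid-bin glycosyltransferase Sobic.002G070800.1 stood at 8.17 ± 0.467, 9.76 ± 2.41, 4.87 ± 0.234 and 1.297 ± 0.131.

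The 7 described members outside these bins were chosen by no rule and are named only for completeness. They were the fatty acyl-CoA reductase Sobic.002G237600.1, which makes fatty alcohols, the lipase Sobic.003G038000.1, the aconitase Sobic.002G316900.1 of the citrate cycle, the aldo-keto reductase-like Sobic.002G030900.1, the cytochrome c-like Sobic.002G342600.1, the metal-binding Sobic.009G210400.1 and the aldehyde dehydrogenase Sobic.010G178300.1. Their Int4 ratios ran from 0.201 to 0.394, and limma called Sobic.009G210400.1 and Sobic.010G178300.1 lower from Int2 to Int3.

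The members at the ends of the range of Int3 against Int1 and Int2 carried no description. The smallest ratio of Int3 to the mean of Int1 and Int2 was that of Sobic.001G261440.1, with RPKM of 73.7, 93.2 and 96.0 in Int1, 57.6, 67.9 and 82.9 in Int2, 5.64, 4.02 and 1.65 in Int3 and 0.18, 0.84 and 2.98 in Int4. Nearly all of its level was gone by Int3, at a log2 change of -4.15 ± 0.50 from Int2 (adjusted p = 6.01e-05 in limma), and Int3 and Int4 overlapped. Sobic.003G387700.1, Sobic.004G115600.2, Sobic.008G079800.1 and Sobic.010G215300.1 followed, with log2 changes from Int2 to Int3 of -3.71, -3.51, -3.56 and -3.52. Of these, Sobic.008G079800.1 was not called (adjusted p = 0.00128 in limma), at 191 ± 13.9 in Int2, 16.1 ± 4.41 in Int3 and 4.67 ± 6.54 in Int4, where the SD exceeded the mean, and it was called without Int4 replicate 2 and without Int4 replicate 3.

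At the other end, Sobic.010G231200.1 had RPKM of 4.94, 6.74 and 3.55 in Int1, 9.99, 8.76 and 7.57 in Int2, 16.2, 10.3 and 12.7 in Int3 and 2.42, 0.71 and 2.12 in Int4. Its 3 Int3 values were above all others, but the change from Int2 was not called (0.54 ± 0.32 on the log2 scale, adjusted p = 0.200 in limma). Sobic.010G276700.3, Sobic.004G357600.1, Sobic.009G221800.1 and Sobic.008G114000.1 also had their highest mean in Int3, with log2 changes from Int2 of 0.54, 0.53, 0.63 and 0.50, none of them called. The most abundant of them, Sobic.009G221800.1, stood at 22.4 ± 4.08, 27.3 ± 1.08, 42.7 ± 5.09 and 8.90 ± 4.99.

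The deepest drops into Int4 after that of the XTH5-like transcript ran from 0.0819 to 0.120 times the smallest mean. Sobic.004G215500.2 had RPKM of 9.81, 9.09 and 11.1 in Int1, 24.6, 30.5 and 21.2 in Int2, 20.7, 22.6 and 24.9 in Int3 and 1.95, 0.50 and 0.10 in Int4. Int2 and Int3 overlapped and stood above Int1, so its 2 highest internodes came just before the drop. Sobic.004G317200.1 descended earlier, from 35.3 ± 2.72 in Int2 to 3.40 ± 0.713 in Int3 (log2 change -3.21 ± 0.21, adjusted p = 2.46e-06 in limma) and 0.327 ± 0.251 in Int4. Sobic.005G121700.1 was the most abundant in Int4 of these 10, at 32.3 ± 5.97, 40.7 ± 7.87, 27.0 ± 4.59 and 3.24 ± 1.31.

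The limit of 0.4 passed through a continuous range. Just inside it, Sobic.007G143500.5, Sobic.004G300500.1 and Sobic.006G134200.1 had Int4 ratios of 0.399, 0.40 and 0.40, and just outside Sobic.002G409500.1, Sobic.003G300100.1 and Sobic.001G481000.1 had 0.400117, 0.401 and 0.401. Sobic.006G134200.1 stood at 146 ± 15.8, 96.5 ± 15.2, 18.9 ± 1.28 and 7.54 ± 1.28. A limit of 0.3 gave 169 transcripts and a limit of 0.5 gave 635.

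Transcript variants of 1 locus share sequence, and reads can be divided among them in a way that makes each level uncertain. Of the 318 member loci, 255 had 1 transcript and 63 had several, and 9 loci gave 2 members and 2 loci gave 3. When RPKM was summed over all transcripts of a locus, 294 of the 318 loci still met the rule. Among the 88 other transcripts of these loci, 20 were at RPKM 3 or more in Int1 to Int3, with Int4 ratios of 0.423 to 1.09. At the UDP-rhamnose synthase locus, the member Sobic.001G418000.1 was the minor variant, and Sobic.001G418000.2 stood at 23.0, 29.6, 27.2 and 22.3 across Int1 to Int4, so the locus as a whole held at 0.856 of its smallest mean. At Sobic.005G061500 the variants moved in opposite directions, with Sobic.005G061500.2 at 14.3, 10.96, 8.52 and 3.23 and Sobic.005G061500.1 at 1.13, 1.32, 7.11 and 25.3. The mannan synthase and the larger pectin esterase were the major variants of their loci, whose other transcripts peaked at 6.74 and 8.08 RPKM.

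Some members lay side by side. By identifier, 24 member loci formed 11 runs of neighbours, the longest of 3 loci. No count for other sets of loci stands beside this, so it does not show that members cluster. One such run held Sobic.001G514200, Sobic.001G514300 and Sobic.001G514400, which include 2 of the 10 most abundant members. The 3 variants of Sobic.001G514300 were all members, and Sobic.001G514300.1 stood at 56.3, 76.0, 32.2 and 3.90 across Int1 to Int4. Another run paired starch synthase I with Sobic.010G047600.1, which stood at 16.5, 22.5, 26.0 and 5.87 and so did not share the early fall of its neighbour. Neighbours may be copies of 1 gene that share reads, which was not tested. The share of loci that were members, among loci at RPKM 3 or more in Int1 to Int3, ran over the 10 chromosomes from 1.69% on chromosome 7 to 4.2% on chromosome 5.

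The members differed between libraries of 1 internode mainly in Int3 and Int4, since the median member stood between 0.963 and 1.02 times its internode mean in each library of Int1 and Int2. In Int4, replicate 3 was the highest of the 3 for 221 members (66.8%) and replicate 2 the lowest for 224, where replicate 3 was the highest for 44.5% and replicate 2 the lowest for 27.6% of all tested transcripts. The 720 transcripts with the reverse pattern, at RPKM 3 or more in Int4 and at most 0.4 times that level in each younger internode, stood at 1.07 times their Int4 mean in replicate 2 and 0.897 in replicate 3. In Int3, replicate 1 was the highest for 202 members (61.0%) and for 37.0% of all tested transcripts, and the reverse set stood there at 0.812 times its mean.

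These differences ran beside the lignin marker in part. The lignin sum in Int4 was 5710, 4135 and 3519 in replicates 1 to 3, so the library with the highest member levels had the lowest lignin sum, but the library with the lowest member levels had the middle one. In Int3 the lignin sum was 2981, 3419 and 4800, and replicate 1, where members were highest, had the lowest. The order was not particular to lignin. Without members, Int4 sums were 47.8, 38.55 and 29.4 for wax, 687, 632 and 563 for lipid transfer and 205, 179 and 166 for photosynthetic light reaction transcripts. Each of these sums was also lowest in Int3 replicate 1. Callose transcripts other than members went the other way, at 69.3, 71.4 and 90.0 in Int4 and highest in Int3 replicate 1. The part of tissue makeup or internode age in these levels was not tested. Measured 1 library at a time, 288, 321 and 190 members stood at or below 0.4 times their smallest mean in Int4 replicates 1, 2 and 3. No member reached its smallest mean in any of the 3. The rule limited the mean of these same 3 libraries, so these counts are largely set by the choice and nothing is read from them.

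The choice was also repeated on 2 of the 3 Int4 libraries. The left-out library was set against the same younger means that the choice had used, so its values are a description. With Int4 replicate 1 left out, 360 transcripts were chosen, and the left-out library was at or below 0.4 times their smallest mean in 241 (66.9%) and below that mean in 347. With replicate 2 left out, 236 of 267 (88.4%) were at or below 0.4 and 263 were below the mean. With replicate 3 left out, 181 of 489 (37.0%) were at or below 0.4 and 466 were below the mean.

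**Figure D4:**
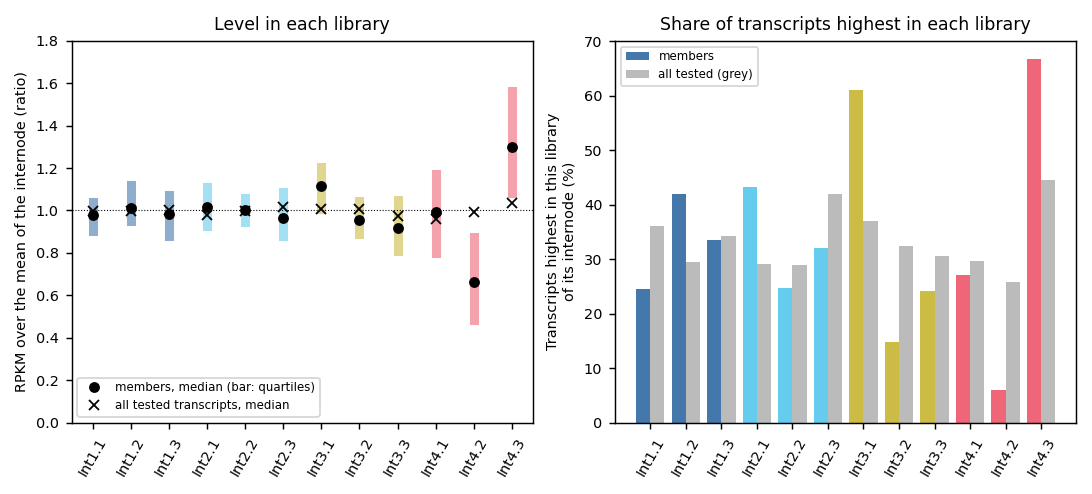
Left, RPKM in each of the 12 libraries over the mean of its internode (y axis, ratio), as the median over members (dot) with quartiles (bar) and the median over all tested transcripts (cross); right, the percent of transcripts that were highest in that library of its internode, for members (coloured) and all tested transcripts (grey). Int4 replicate 3 was the highest for 66.8% of members and Int3 replicate 1 for 61.0%, against 44.5% and 37.0% of all tested transcripts.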

How the data were processed

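The values are RPKM per transcript, made by the authors from single-end reads in the CLC genomics workbench and deposited with 2 decimals. Their comparisons used edgeR on read counts, which are not in the table used here, so RPKM was tested on the log2 scale. The study's thresholds were kept. The members and the gene lists were chosen with earlier results of these data known. RPKM was averaged over 3 replicates per internode for the rule. The 26320 transcripts averaging RPKM 1 or more in some internode were tested on log2(RPKM + 0.5). The limma package (3.58.1, R 4.3.3) estimated a mean for each internode from the 12 libraries together, with a variance trend, and was tested on simulated data. The pseudocount makes changes of low transcripts look smaller than they were. Deviations of same-numbered libraries from their internode means correlated at over 0.1 for all 3 numbers between Int1 and Int2 alone (r of 0.130, 0.104 and 0.137 across transcripts, against -0.129 to -0.00305 for differently numbered pairs). Between Int1 and Int4 they were 0.0749, 0.0474 and 0.108, and between Int2 and Int4 they reached 0.221, 0.0448 and 0.235. For Int3, same numbers gave -0.147, 0.0529 and -0.268 with Int2 and -0.233, 0.182 and -0.339 with Int4. The highest values of all joined Int3 replicate 1 to Int4 replicate 3 (0.334) and Int3 replicate 3 to Int4 replicate 1 (0.374). Int3 replicate 1 likewise went with Int2 replicate 3 (0.193), and Int3 replicate 3 with Int2 replicate 1 (0.268). The methods take the 4 internodes from 3 plants, but the labels do not tie a number to a plant. The replicate block went by these numbers, so for Int3 it may have joined unlike libraries. The main fit held no plant term. Neither fit therefore tells how the calls would stand with the plants paired. Absolute read counts per transcript were not used, so no counting interval is given.

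Named members were the 10 most abundant in Int3, the 10 with the smallest Int4 ratio, the 5 at each end of the Int3 ratio, all members in cell wall, callose, starch, lipid transfer, phenylpropanoid, flavonoid or fatty acid bins, and the 3 on either side of the limit. The planned lists by product name could not be applied beyond the study's functional table, since no names for the other transcripts were used here. Alternatives were another average, limit, minimum, scaling, pseudocount, filter, threshold, fit or replicate block, and each library left out. Python 3.11.15 with pandas 2.3.3, numpy 2.4.6 and matplotlib 3.10.9 served for all else.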

Additional observations from a re-analysis of the deposited data

How the results depend on the processing

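The number of members depended on the limits set: 169 at a ratio limit of 0.3, 635 at 0.5, 607 at a minimum RPKM of 1 and 130 at a minimum of 10. It was 415 with the median of 3 replicates (290 shared with the 331), 255 after scaling of the libraries by their median ratio (251 shared), 307 loci on RPKM summed per locus (chosen after seeing the data), and 267 to 489 when 1 library was left out, the extremes being without Int4 replicate 2 and without Int4 replicate 3. From Int2 to Int3 the count of 96 ran from 77 to 131 under the other settings and from 59 to 108 with 1 library left out, and was 59 without Int2 replicate 2 and 63 without Int3 replicate 2. From Int1 to Int3 the count of 126 ran from 96 to 139 with 1 library left out. From Int1 to Int2 the count of 1 became 11 at an adjusted p under 0.05 (8 higher and 3 lower) and 0 to 1 with 1 library left out. Without Int4 replicate 1 or 2, the 1 called was another member. The count was 0 without the filter on low values and when the 2 internodes were fitted alone. With the replicate block the counts were 0 from Int1 to Int2, 81 from Int2 to Int3 and 116 from Int1 to Int3, and 17 in place of 19 named members were called lower from Int2 to Int3 (14 to 22 with 1 library left out). The block went by library number, which is not known to mark plants. Of the named members' changes from Int2 to Int3 under alternatives, 857 stayed on their side of the threshold, 31 lost and 8 gained a call. The sign turned in 8 of the 857, in 4 members that were not called, and in none of the others. After scaling, 304 members had all Int4 values below the 9 others. RPKM gives relative levels, and with 3 libraries per internode 1 library can move the membership of a transcript near the limit.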
